A study of Mus musculus with 4 samples.

Results

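The genes described here are the replication-dependent histone genes of the mouse, taken as every gene whose GENCODE M21 symbol starts with Hist1h, Hist2h or Hist3h. The rule found 67 genes among the 50600 in the count tables. The annotation holds 69 such symbols, and Hist1h2bh and Hist1h2bm were not analysed here. RNA came from primary cells of strain C57BL/6NJ that the labels call T-helper 17, a CD4 T cell type known for making interleukin 17. The 4 libraries, biological replicates 1 to 4, form 1 group with a biosample record each and 1 shared donor record, and the labels give no genotype change, treatment, age, sex or control group. The labels call the assay total RNA-seq but link a library protocol titled poly(A)+, and they link a CD4 T-cell differentiation protocol, while the names of the aligned files, recorded in the tables, give the hour as 0.

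Replication-dependent histone genes supply the bulk of the histone protein that packages newly copied DNA, and their mRNAs are known to build up in S phase and to be degraded when DNA synthesis stops. They are the metazoan mRNAs that normally end in a conserved stem-loop in place of a poly(A) tail. The stem-loop binding protein SLBP and the U7 small nuclear ribonucleoprotein direct the cut just downstream of it, and selection for poly(A) is known to recover such mRNAs poorly. Some of these genes are also known to give polyadenylated forms, mostly in cells that do not divide. Which library method was used could not be settled from the labels, so the levels below are those of whatever RNA the method kept, and fewer cells in S phase cannot be told apart from less histone mRNA per cell.

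Most of the members that carry the signal share 1 of a few stem-loops, which are shown because they are the feature that sets these mRNAs apart from others. The 16-base histone stem-loop consensus, with 3 of its positions left free, was searched on the transcribed strand after the stop codon in GENCODE M21 transcripts. It was found in 39 of 67 members, between 21 and 58 bases after the stop codon, with a median of 31. Capitals mark the stem-loop in the following transcripts, and the 5 bases on either side are in lower case. In genome build GRCm38 (mm10), the stem-loop of the first lies on chr13:23739512-23739527 (plus strand), of the second on chr11:58949349-58949364 (plus), of the third on chr13:23581950-23581965 (plus), of the fourth on chr13:22040966-22040981 (minus), of the fifth on chr3:96220418-96220433 (minus) and of the last on chr13:23696525-23696540 (plus).
Hist1h1c: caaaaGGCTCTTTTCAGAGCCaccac
Hist3h2ba: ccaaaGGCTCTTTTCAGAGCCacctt
Hist1h4d: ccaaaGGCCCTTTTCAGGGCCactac
Hist1h4i: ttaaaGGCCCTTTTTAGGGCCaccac
Hist2h2ac: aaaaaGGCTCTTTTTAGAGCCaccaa
Hist1h1t: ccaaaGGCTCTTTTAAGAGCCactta

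The stem-loop of Hist1h1c was carried letter for letter by 24 members of the H1, H2A, H2B and H3 classes. That of Hist1h4d was found in 6 members, all of them H4 genes, and that of Hist1h4i in 2 H4 genes. The stem-loop of Hist1h1t was found in 6 members and that of Hist2h2ac in 1. Of the 28 members without a match, 3 were pseudogenes and 17 had an annotated transcript that ends 50 bases or less past the stop codon, which leaves little or no room for the stem-loop in most of them. Hist1h1a, with 48 annotated bases after its stop codon, had room for a stem-loop at the median distance and showed none. The other 8 had longer annotated ends with no such letters, among them Hist2h2be, an H2B gene whose transcript runs 2192 bases past its stop codon. A transcript with the stem-loop was not always a measured one, since 8 of the 39 had 0 counts in all 4 libraries.

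Members spanned levels from 0 to moderate, and the highest lay below 34.3 TPM, the median of the protein-coding genes at 1 TPM or more in every library. Levels are given as TPM, which divides counts by gene length and sets every library to the same sum. The 67 members summed to 239, 195, 213 and 178 TPM in replicates 1 to 4, a mean of 206 ± 26.1 (SD, n = 4). They took 8474 counts in all, 0.0054% ± 0.000706 of each library (SD, n = 4), so single members rest on few fragments. At 1 TPM or more in every library stood 26 members, or 38.8%, against 9933 of 21764 protein-coding genes, or 45.6%. Another 26 had at least 1 count and missed 1 TPM in at least 1 library, and 15 had 0 counts in all 4, or 22.4%, against 7836 of the 21764 protein-coding genes. The median member had a mean of 0.803 TPM, above the median of 0.355 TPM over all protein-coding genes. The highest member, Hist1h1c, stood above 71.6% of all protein-coding genes and was exceeded by 62.2% of the protein-coding genes that were at 1 TPM in every library.

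The libraries held 29041979 to 48808978 counts. T-cell markers were high in each, with Trac at 3069 ± 37.3 TPM, Lck at 1351 ± 38.9, Cd4 at 969 ± 34.2 and Cd3d at 806 ± 18.7 (SD, n = 4). Markers of naive and resting T cells were high too, led by Tcf7 at 3034 ± 375 TPM, Ccr7 at 865 ± 71.4 and Il7r at 803 ± 185. Of 8 Th17 markers, 3 reached 1 TPM in every library, Il17f at 9.83 ± 3.10 TPM, Il17a at 4.22 ± 1.53 and Rora at 2.47 ± 0.372, and Il22 and Il23r lay below 0.5 TPM in each, so the Th17 label rests on low values. Summed B-cell markers lay between 2.51 and 3.73 TPM and summed myeloid markers between 1.55 and 2.99. Summed erythroid markers lay between 0.0785 and 0.461 TPM, with 5 of 7 at 0 counts, and the 2 alpha-globin copies are alike enough to lose fragments. Replicate 4 stood apart in Hsph1, a heat shock gene, at 195 TPM against 26.0, 65.4 and 33.0 in replicates 1 to 3.

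The linker histone H1 class binds DNA between nucleosomes, and 4 of its 6 members reached 1 TPM in every library. The class summed to 54.7, 38.1, 46.8 and 28.2 TPM in replicates 1 to 4, a mean of 42.0 ± 11.4 (SD, n = 4). Hist1h1c, which encodes H1.2, was the highest of all members at 30.6, 18.5, 25.3 and 16.9 TPM, from 397, 286, 560 and 340 counts. It supplied 54.5% ± 4.70 of the class (SD, n = 4). Hist1h1e, which encodes H1.4, stood at 9.31, 8.75, 8.75 and 5.17 TPM. Hist1h1a, which encodes H1.1, stood at 7.85, 6.59, 8.77 and 4.34 TPM. Hist1h1d, which encodes H1.3, stood at 6.45, 4.06, 4.07 and 1.46 TPM. All 4 genes were lowest in replicate 4. Hist1h1b, which encodes H1.5, gave 9 counts in all, and Hist1h1t, the testis H1, gave 0.

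H2A and H2B form the dimers on the outer faces of the nucleosome, and here H2B exceeded H2A in every library. The 20 H2A members summed to 36.4, 30.1, 29.1 and 25.6 TPM (30.3 ± 4.48, SD, n = 4), with 6 at 1 TPM in every library. The 17 H2B members summed to 64.3, 54.6, 61.6 and 53.6 TPM (58.5 ± 5.20), also with 6 at 1 TPM. The ratio of H2B to H2A was 1.95 ± 0.183 (SD, n = 4), and it ran from 1.77 to 2.12. These sums leave out fragments shared between copies, and the median H2A member had fewer unique windows than the median H2B member, as given below.

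Both classes were led by genes outside the large Hist1 cluster. Hist2h2be, an H2B gene on chromosome 3, stood at 20.8, 15.5, 19.3 and 18.3 TPM from 2196 counts. It is a member by its symbol, and no stem-loop was found in its transcript, so its replication dependence is not shown here. Hist3h2ba, an H2B gene on chromosome 11, stood at 15.4, 17.1, 18.9 and 14.6 TPM. Among H2A genes, Hist2h2ac stood at 11.1, 8.52, 8.52 and 8.18 TPM. Replicate 1 was the high one for Hist2h2ac, while replicates 2 to 4 lay close together. Hist3h2a stood at 5.71, 5.40, 5.93 and 7.68 TPM and was highest in replicate 4. Hist2h2bb stood at 7.88, 5.29, 6.65 and 4.67 TPM. The first Hist1 gene of the H2B class, Hist1h2bc, had a mean of 5.48 ± 1.20 TPM (SD, n = 4). Further down came the H2A genes Hist1h2ak at 3.47 ± 0.800 TPM, Hist1h2ai at 3.32 ± 0.893, Hist1h2ac at 3.00 ± 2.78 and Hist1h2ae at 2.38 ± 1.57, and on the H2B side Hist1h2bg at 2.71 ± 1.07 and the pseudogene Hist3h2bb-ps at 2.62 ± 1.03. Hist1h2ac had 28, 6, 17 and 7 counts in replicates 1 to 4, so its spread comes with few fragments.

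H3 and H4 form the tetramer at the nucleosome's core, and they lay at opposite ends of the class order. The 12 H4 members summed to 69.8, 60.6, 64.2 and 63.5 TPM (64.5 ± 3.84, SD, n = 4), the highest class mean. The 12 H3 members summed to 13.8, 11.1, 10.8 and 7.03 TPM (10.7 ± 2.79), the lowest. The ranges of the 2 classes did not overlap, and the ratio of H4 to H3 was 6.37 ± 1.81, from 5.06 to 9.04. These sums too leave out fragments shared between copies. The median H3 member had fewer unique windows than the median H4 member, as given below. Of the H4 members, 8 reached 1 TPM in every library and none was at 0 counts. Of the H3 members, 2 reached it and 5 had 0 counts. H4 exceeded H2B in 4 of 4 libraries, although the ranges of those 2 classes overlapped. Of summed member TPM, H4 held 31.6%, H2B 28.5%, H1 20.1%, H2A 14.7% and H3 5.13%. With 200 bases taken off each length, to allow for fragment size, the H4 sum was 106.0 TPM and the H3 sum 15.0. As CPM, counts scaled to library depth without length, H4 summed to 9.57, below H1 at 14.1 and H2B at 21.4, so the place of H4 at the top depends on dividing by length.

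The H4 genes encode the same protein from different loci, and the level was spread over several of them. Hist1h4d stood at 19.9, 15.6, 13.8 and 12.8 TPM. Hist1h4c, one of the steadiest members, stood at 13.1, 11.5, 13.7 and 12.5 TPM. Hist1h4i stood at 16.7, 9.56, 9.29 and 11.6 TPM, with replicate 1 above the rest. Hist1h4n went the other way, at 4.75, 9.60, 11.9 and 7.20 TPM, with replicate 1 lowest. Hist1h4b, at 3.93, 4.31, 4.78 and 8.38 TPM, was highest in replicate 4. Hist1h4h had a mean of 4.84 ± 1.37 TPM, Hist2h4 of 2.52 ± 0.236 and Hist1h4k of 1.72 ± 0.391 (SD, n = 4). Hist1h4k rests on 4, 7, 6 and 7 counts in replicates 1 to 4. For this gene 3 counts in replicate 1 already come to 1.15 TPM. Hist4h4, a like H4 gene on chromosome 6 outside the rule, had a mean of 0.846 ± 0.266 TPM.

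The H3 class had no strong member. Hist2h3b, which encodes the H3.2 form, stood at 3.94, 3.51, 2.88 and 2.85 TPM. Hist1h3a, an H3.1 gene, stood at 5.40, 3.21, 3.29 and 1.01 TPM, from 24, 17, 25 and 7 counts. Hist2h3c2 had a mean of 1.17 ± 0.506 TPM and Hist1h3e of 1.05 ± 0.492 (SD, n = 4), and each missed 1 TPM in at least 1 library.

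**Figure D1:**
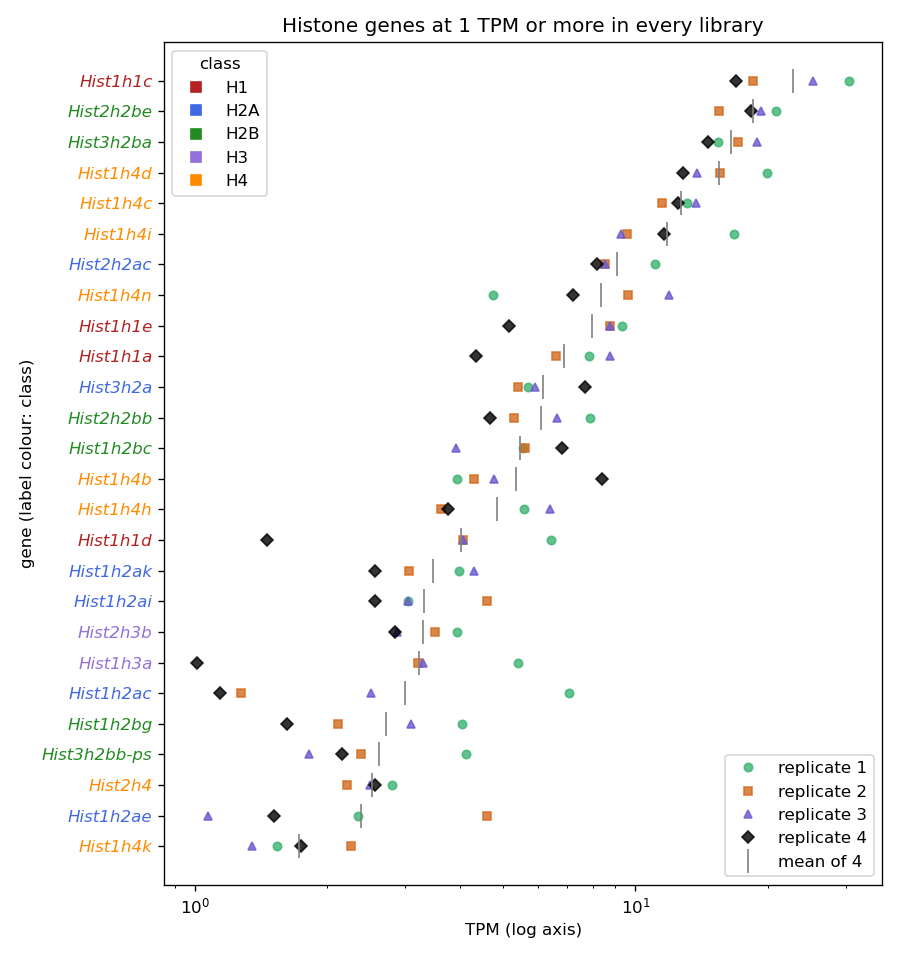
TPM on a log axis of the 26 members at 1 TPM or more in every library, 1 symbol per replicate and a bar at the mean of 4 libraries, with gene names coloured by class. Hist1h1c leads with 16.9 to 30.6 TPM, and the points of neighbouring genes overlap throughout the upper 12.

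No step in the order of the 12 highest members was larger than the spread between libraries, since the ranges of all 11 neighbouring pairs overlapped. Hist1h4d was above Hist1h4c in 4 of 4 libraries, and so was Hist1h4i above Hist2h2ac. Hist2h2ac was above the next gene, Hist1h4n, in 2 of 4. The 4 highest members, Hist1h1c, Hist2h2be, Hist3h2ba and Hist1h4d, came from 3 clusters and held 35.5% ± 0.985 of summed member TPM (SD, n = 4). The 12 highest held 69.1% ± 1.44.

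The members lie in 3 clusters, and their levels differed between them. Hist1 on chromosome 13, with 54 members, summed to 139 ± 21.3 TPM (SD, n = 4) and had 18 members at 1 TPM in every library. Hist2 on chromosome 3 (96219865 to 96270132), with 10 members, summed to 42.0 ± 4.79 TPM and had 5. Hist3 on chromosome 11 (58948920 to 58956830), with 3 members, summed to 25.3 ± 0.958 TPM and all 3 were at 1 TPM in every library. Within Hist1, 23 members at 21715763 to 22043676 summed to 36.1 ± 2.80 TPM with 5 at 1 TPM. A second block of 30 members at 23531050 to 23934851, which holds all the H1 genes but Hist1h1b, summed to 103 ± 19.1 TPM with 13 at 1 TPM. The block totals of the 2 stretches did not overlap in any library, at 31.9 to 37.8 and 82.3 to 127 TPM. These totals too leave out fragments shared between copies. Most members of the first stretch had under 50% unique windows, as described below, and most of the second had 50% or more. How far this sets the totals apart was not tested. Hist1h2al, a pseudogene at 51202688, stood alone with 1 count.

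Near-identical copies limit what a count of 0 means here. The command line in the file headers shows no option for fragments that map to several places or genes, so fragments shared by copies were left out of the counts. To gauge this, each member's M21 transcript was read in 50-base windows, and a window was called unique if it occurred in no transcript of another locus. The median share of unique windows was 98.8% for H1, 60.0% for H4, 55.9% for H2B, 42.8% for H3 and 26.8% for H2A. Of the 35 members with 50% or more unique windows, 20 were at 1 TPM in every library and their mean TPM summed to 171. Of the 23 with 10% to 50%, 5 were, with a sum of 30.5 TPM. Of the 9 under 10%, 1 was, Hist1h2ai, and the sum was 4.68 TPM. Hist1h4n reached 8.37 ± 3.10 TPM (SD, n = 4) with 14.4% unique windows, so a low share did not always come with a low level. The shares depend on the window length. In 100-base windows Hist1h2ak had 89.5% against 47.7% in 50-base windows, and Hist2h2ac 93.1% against 61.4%. Hist1h2ai had 11.6% against 9.88%, and Hist1h4n 19.3% against 14.4%. The shares are those of the M21 transcript, which in 14 members was at least 100 bases longer than the counted model. Hist1h2ac, with 88.4% unique windows, had 2482 bases against 476 counted, so its share over the counted stretch may differ. How far lost fragments set these levels was not tested.

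**Figure D2:**
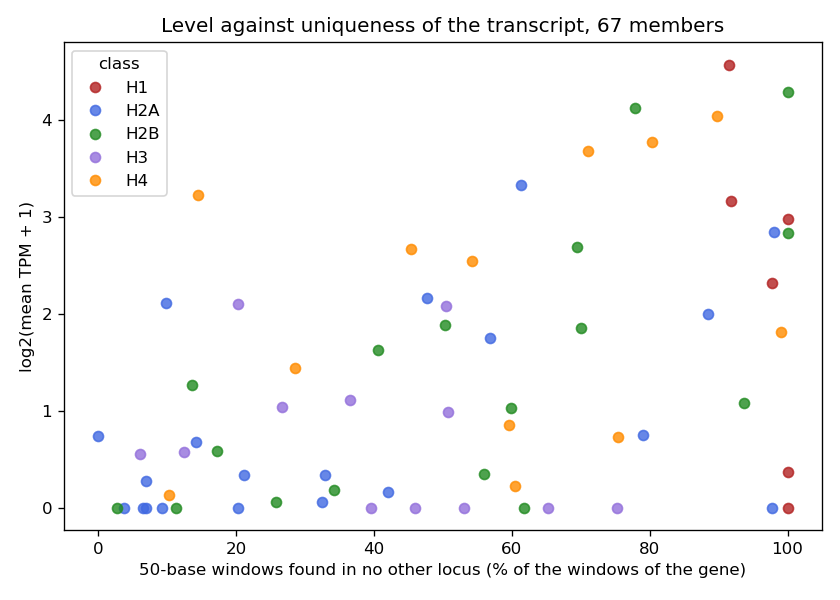
Mean TPM as log2(TPM + 1) over 4 libraries against the share of unique 50-base windows in each member's transcript, 1 point per gene for 67 members, coloured by class. The 6 H1 genes sit at 91.5% or more, and points at 0 TPM occur across the whole axis.

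The 15 members with 0 counts fall on both sides of that limit. Hist1h1t had 100% unique windows, Hist1h2aa 97.7% and Hist1h2ba 61.8%, and these 3 are known as testis histone genes. For Hist1h1t the limit of 3 counts corresponds to at most 0.289 to 0.494 TPM by library, from counting error alone. Of the H3 genes at 0, Hist1h3d had 75.2% unique windows, Hist2h3c1 65.3%, Hist1h3c 53.0%, Hist1h3g 45.9% and Hist1h3b 39.6%. The windows cover the M21 transcript, which for Hist1h3d has 1249 bases against 560 in the counted model, so part of that share lies where no fragment could be counted. Hist2h3c1, like Hist2h2aa1 with its 3.72%, also overlaps the gene Gm20634 on the same strand, which drew 80 counts. The remaining genes at 0 were Hist1h2af, Hist1h2ah, Hist1h2ao, Hist1h2ap, Hist1h2bq and Hist1h2br. Of these, Hist1h2af had 20.3% unique windows, Hist1h2ah 9.27%, Hist1h2ao 6.50%, Hist1h2ap 6.93%, Hist1h2bq 2.68% and Hist1h2br 11.3%. Of measured members, Hist2h2bb overlaps Gm42743 (37 counts), Hist3h2a overlaps Trim17 (27 counts) and Hist1h2be overlaps Gm11398 (0 counts) on their own strand.

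The length used for TPM is another limit, because annotated ends differ. In 14 members the M21 transcript was at least 100 bases longer than the counted model, and 8 of these were at 1 TPM in every library. Hist1h1d was counted over 744 bases, while its M21 transcript has 7425. Fragments from such longer ends were outside the counted model. Among members with a stem-loop, the counted model ran more than 50 bases past it in 14, whose median was 1.15 TPM. It ended within 50 bases of it in 25, with a median of 0.678 TPM. Whether the counts came from RNA cut at the stem-loop or from longer polyadenylated forms was not tested.

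H2A and H2B genes often stand head to head, transcribed apart from a shared stretch of DNA. The members held 13 such pairs less than 1000 bases apart, all of 1 H2A and 1 H2B gene, which made up 26 of the 67 genes. In 4 pairs both genes were at 1 TPM in every library, in 2 pairs 1 gene was, and in 7 neither was. Over all 67 members the share at 1 TPM in every library was 38.8%, and the paired genes lay near it. Hist2h2ac and Hist2h2be were the highest pair, with means of 9.08 ± 1.35 and 18.5 ± 2.21 TPM (SD, n = 4). In the pair Hist3h2bb-ps and Hist3h2a the H2A gene was the higher, at 6.18 ± 1.02 against 2.62 ± 1.03 TPM. The pair Hist1h2ag and Hist1h2bj was uneven as well, with 6 and 45 counts. Their shares of unique windows were 21.1% and 40.6%, and the part of lost fragments in their levels was not tested.

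**Figure D3:**
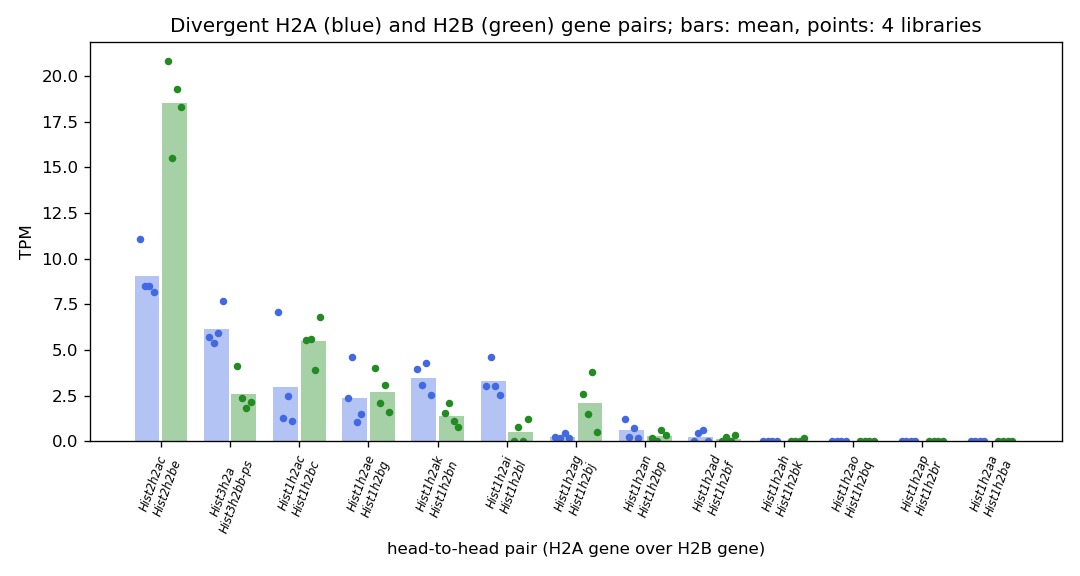
TPM of 13 head-to-head pairs, H2A gene in blue and H2B gene in green, with bars at the mean and 1 point for each of 4 libraries. The pair of Hist2h2ac and Hist2h2be stands highest, and the genes of the pairs at the right lie at 0 or near it.

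Histone promoters are short and share known elements, so they were read for 58 members with an entry in the RefSeq promoter table (GRCm38.p6). Each motif was sought on both strands and set beside 32851 promoters of the same length. CCAAT, the letters bound by the factor NF-Y, occurred in 86.2% of members and in 37.4% of all promoters. It was in every H1, H2A, H2B and H3 promoter and in 3 of 11 H4 promoters. TATAAA, the TATA box, occurred in 60.3% of members and in 13.6% of all promoters. ATTTGCAT, the octamer known from H2B promoters and bound by OCT1, occurred in 7 of 17 H2A and 5 of 14 H2B promoters and in none of the other classes, against 1.74% of all promoters. The promoters of head-to-head genes can overlap, as those of Hist1h2ae and Hist1h2bg do. A single match can then be counted in both classes. AAACACA, known as the AC box of H1 promoters, occurred in 5 of 6 H1 promoters and in 7.18% of all promoters. AAACACA was at a like share in members at 1 TPM in every library and in the others, at 14.3% and 13.5%, and so was TATAAA, at 61.9% and 59.5%. CCAAT was in 76.2% of members at 1 TPM and 91.9% of the others, and ATTTGCAT in 28.6% and 16.2%. A match is a string of letters and not a shown binding site. The bases before the start of Hist1h1c, the highest member, are shown with the AC box and the CCAAT box in capitals (GRCm38, chr13:23738657-23738806, plus strand).
Hist1h1c: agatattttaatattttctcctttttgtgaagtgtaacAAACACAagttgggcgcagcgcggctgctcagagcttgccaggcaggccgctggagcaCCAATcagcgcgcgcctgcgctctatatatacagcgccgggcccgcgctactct

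The whole stretch between the highest head-to-head pair is also shown, because its 238 bases separate the annotated starts of 2 genes (GRCm38, chr3:96220881-96221118, written on the minus strand, toward Hist2h2ac). Capitals mark the octamer on the reverse strand (ATGCAAAT), CCAAT on this strand or its complement ATTGG, and TATAAA.
Hist2h2ac: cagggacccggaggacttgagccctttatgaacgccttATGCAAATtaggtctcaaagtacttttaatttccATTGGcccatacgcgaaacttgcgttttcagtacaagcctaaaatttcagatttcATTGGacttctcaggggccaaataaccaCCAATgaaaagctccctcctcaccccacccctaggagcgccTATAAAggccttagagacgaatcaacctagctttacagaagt

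Histone genes outside the clusters, which encode variants mostly made throughout the cell cycle, were higher than the members. Of 11 such genes, 9 were at 1 TPM in every library. Together they summed to 942, 874, 936 and 831 TPM (896 ± 53.1, SD, n = 4), 4.38 ± 0.309 times the members. H3f3b, an H3.3 gene, stood at 345 ± 33.5 TPM and H2afy, which encodes macroH2A1, at 140 ± 8.16. H2afz, an H2A.Z gene, stood at 101 ± 4.73 TPM and H3f3a, the other H3.3 gene, at 76.5 ± 1.33. None of the 67 members had a mean above that of H2afz. H2afy2 and H1fx had 0 counts. The library method was not settled, and selection for poly(A) would recover members that end in the stem-loop poorly. How much of this gap, and of the ratios by family below, comes from the method was not tested.

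By protein family the gap was widest for H3, whose members' sum rests on 294 counts and leaves out fragments shared between copies. The H3.3 genes H3f3a and H3f3b together were 32.9, 36.8, 41.0 and 54.1 times the summed H3 members in replicates 1 to 4, a mean of 41.2 ± 9.21 (SD, n = 4). The H2A.Z genes H2afz and H2afv together were 5.57 ± 0.835 times the summed H2A members. The other measured H2A variant genes, H2afx, H2afj and H2afy, together were 8.96 ± 0.974 times that sum. Among linker histones the order was the other way, and the H1 members were 2.20 ± 0.485 times H1f0, the H1.0 gene known from resting cells. H1f0 stood at 27.0, 13.3, 27.4 and 12.9 TPM, and the H1 members exceeded it in all 4 libraries.

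**Figure D4:**
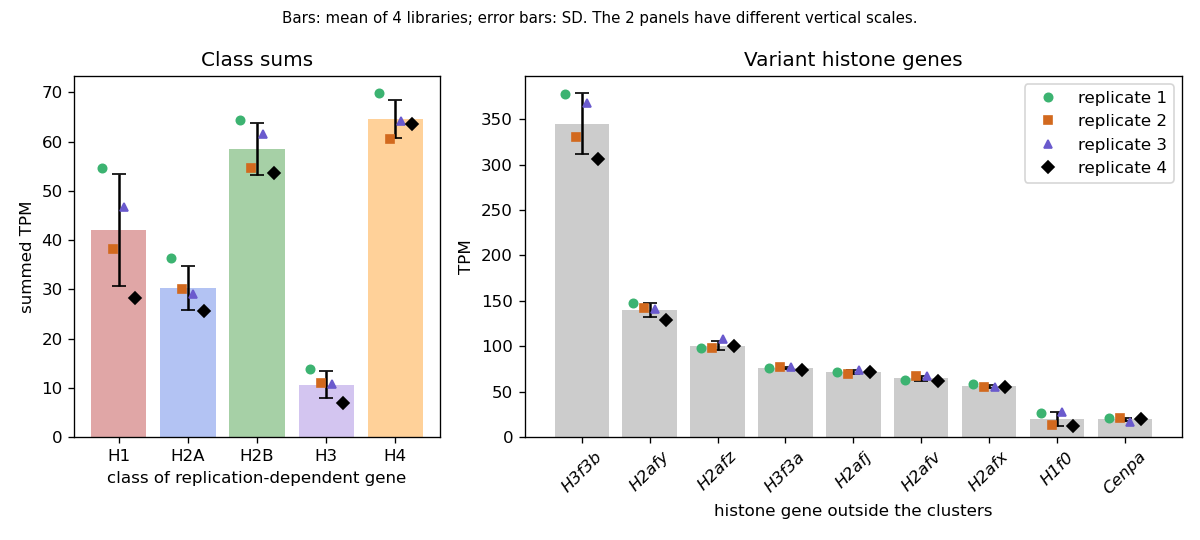
Summed TPM of the members by class (left) and TPM of the 9 measured variant genes (right) on different linear axes, with bars at the mean, SD as error bars and 1 symbol for each of 4 replicates. H4 and H2B are the highest classes at 64.5 and 58.5 TPM, H3 the lowest at 10.7, and H3f3b stands above 300 TPM in every library.

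The genes that make and degrade histone mRNA were present at moderate levels. Of 19 genes in that list, 18 were at 1 TPM in every library and the median was 38.3 TPM. The highest were general RNA factors, Srrt, the ARS2 gene of the cap complex, at 225 ± 17.0 TPM, Upf1, an RNA helicase of mRNA decay, at 179 ± 9.92, Cpsf3, the nuclease that makes the cut, at 171 ± 11.3, and Ncbp1, a cap-binding subunit, at 150 ± 6.67 (SD, n = 4). Slbp, Npat and Lsm11, more particular to histone mRNA, were added after their values were seen. Slbp stood at 21.5 ± 1.07 TPM, Npat, the coactivator of histone gene transcription, at 25.6 ± 1.21, and Lsm11, a U7 subunit, at 15.1 ± 2.54. Zfp473, whose human counterpart ZNF473 binds the U7 particle, was the 1 gene below the threshold, at 0.382 ± 0.134 TPM.

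Histone chaperones, which carry histones to DNA, were also expressed. Of 20 in the list, 19 were at 1 TPM in every library, with a median of 67.2 TPM. The highest were Nap1l4 at 250 ± 5.44 TPM, Ssrp1, a FACT subunit, at 207 ± 3.42, Daxx, an H3.3 chaperone, at 150 ± 12.7, and Ubn1, a HIRA partner, at 136 ± 3.85 (SD, n = 4). Chaf1a, the large subunit of the CAF-1 complex that loads histones on newly copied DNA, was the gene below, at 2.29, 1.58, 1.55 and 0.889 TPM, and it was added after its values were seen.

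Cell cycle genes were uneven. Of 25 S-phase genes, 21 were at 1 TPM in every library, with a median of 8.37 TPM. Pcna, the replication clamp, stood at 130 ± 4.33 TPM, and the helicase subunits Mcm4 at 89.5 ± 1.30, Mcm6 at 61.8 ± 3.07 and Mcm3 at 51.3 ± 2.54 (SD, n = 4). Of 25 genes of G2 and mitosis, 9 were at 1 TPM in every library, with a median of 1.03 TPM. Ndc80, a kinetochore gene, stood at 9.66 ± 0.903 TPM, Cdc20, an activator of the anaphase complex, at 6.73 ± 0.346, Kif23, a midzone kinesin, at 6.11 ± 1.17, and Aurka, a spindle kinase, at 3.99 ± 0.387. The part of the cell cycle state in the members' levels was not tested.

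With 1 group, the test the design allows is whether a gene varies between libraries more than genes of like abundance do. In edgeR's quasi-likelihood fit over 12464 genes, 24 were called at an adjusted p below 0.05, or 0.193%. Of the members 21 passed the count filter and 0 of these were called. At an unadjusted p below 0.05 in edgeR stood 2 of the 21 members, against 665 of the 12464 genes, or 5.34%, and DESeq2's dispersion outliers, 0.866% of genes, held 0. Those were Hist1h1c, with an adjusted p of 0.697 in edgeR's fit, and Hist1h1d, with an adjusted p of 0.901. Without a filter on low counts, where 1.63% of 21421 genes were called, Hist1h1c was called (edgeR adjusted p = 0.0235). The adjusted p of H1f0, the H1 gene outside the clusters, was 0.189 in edgeR's fit. The labels call the libraries biological replicates with a shared donor record, and whether they came from separate animals is not stated. Technical spread therefore cannot be told apart here from differences between the biosamples.

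Between libraries, the lowest values of many members fell in replicate 4, among them those of all 4 H1 genes past the filter, 3 of 4 H2A genes and the 1 H3 gene. The same held for 2 of 5 H2B genes but only 1 of 7 H4 genes, of which 4 were lowest in replicate 2. The mean deviation of the 21 members from their own averages, as log2(CPM + 1), was 0.08, -0.04, 0.03 and -0.07 in replicates 1 to 4. For the 4 H1 genes it was 0.26, -0.04, 0.15 and -0.36, and for H2A, H2B and H4 it stayed between -0.08 and 0.04, on a scale that damps low genes. Summed TPM was lowest in replicate 4 for H1, H2A, H2B and H3, and for H3 it was 7.03 there against 10.8 to 13.8 elsewhere. No test set H1 against the other classes. In replicate 4 stood the lowest value of 11 of the 21 members, or 52.4%, against 30.6% of the 12464 genes. Hist1h4b, Hist3h2a and Hist1h2bc were highest there, at 0.30, 0.28 and 0.20. The mean over the S-phase list stayed within 0.02 of 0 and that over the G2 and mitosis list within 0.05, while single S-phase genes ran from -0.42 to 0.34. The mean of the 3 Th17 genes past the filter was 0.33 in replicate 1 and -0.19 in replicate 4. Without replicate 4 the H1 sum was 46.5 ± 8.27 TPM (SD, n = 3) against 42.0 ± 11.4 with it. Hist1h1c and H1f0 were lower in replicates 2 and 4 than in 1 and 3, and so were the resting T-cell genes Tcf7, at 3287, 2785, 3417 and 2649 TPM, and Ccr7, at 929, 815, 924 and 793. Il7r had the opposite order, at 632, 971, 654 and 956 TPM. The part of these genes, of the high Hsph1 of replicate 4 or of the Th17 genes in the H1 levels was not tested.

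**Figure D5:**
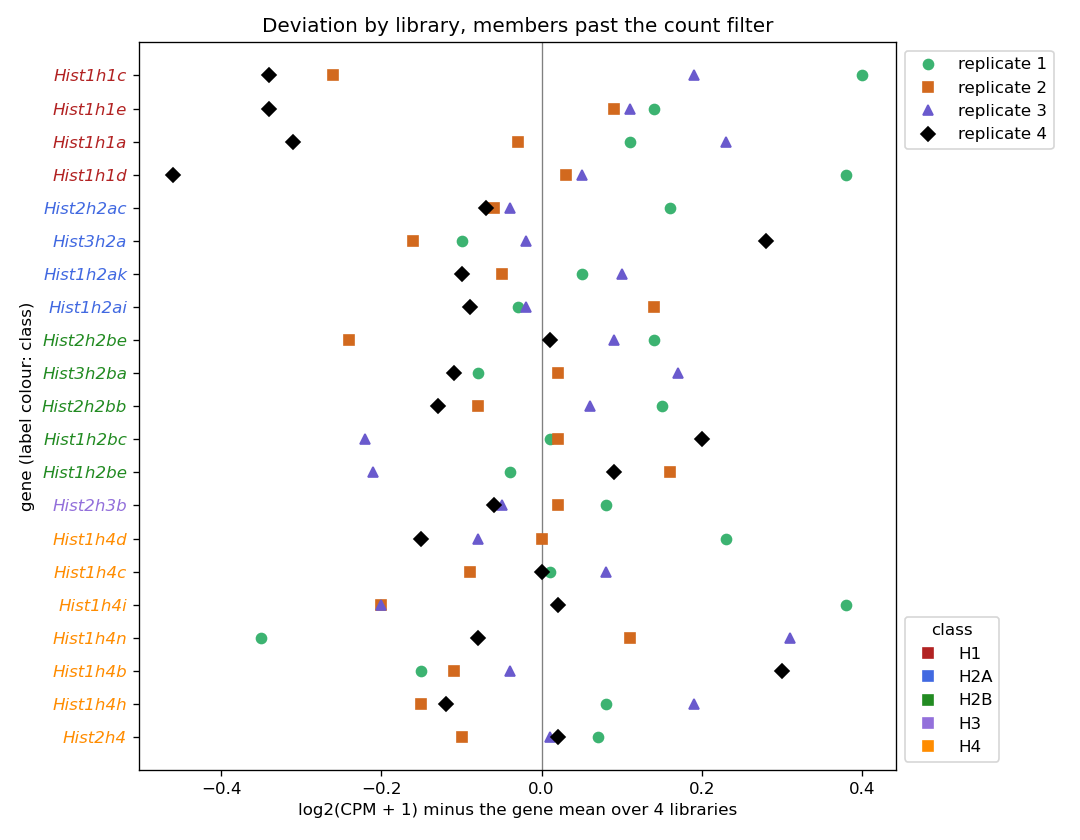
Deviation of log2(CPM + 1) from the gene's mean over 4 libraries for the 21 members past the count filter, 1 symbol per replicate, grouped by class. Replicate 4 is lowest for all 4 H1 genes, at -0.31 to -0.46, for 3 of 4 H2A genes and for the H3 gene. It is lowest for 2 of 5 H2B and 1 of 7 H4 genes, and highest for Hist3h2a, Hist1h2bc and Hist1h4b.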

How the data were processed

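The authors deposited raw fragment counts per gene, 1 table for each of 4 libraries. The tool was featureCounts 1.4.6-p4 with GENCODE M13 exons, mm10, read pairs with both ends mapped and the reverse strand, per the file headers. Which aligner version was used is not given in the sources at hand. GENCODE M21 gave symbols for 50376 gene IDs, and 224 without one stayed in the totals. TPM was computed from counts and the tables' exon length, without effective lengths. Depth was 29041979, 35018552, 48808978 and 45490373 counts in replicates 1 to 4. A count of 0 allows up to 3 counts, and such limits cover counting error only.

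Spread was tested with edgeR 4.0.16 in R 4.3.3 (intercept only, TMM, filterByExpr, robust, one-sided F test of the quasi-dispersion, Benjamini-Hochberg over all genes tested), with DESeq2 1.42.0 as an alternative. The biological coefficient of variation was 9.8%. Figures and sums used Python 3.11.15 and pandas 2.3.3. Members, gene lists and tests were chosen with earlier results of these data known. Named genes were the 12 highest members, the 4 highest of each class, every member at 1 TPM in every library or with 0 counts, and up to 4 genes by mean TPM of each list. Others named were chosen after their values were seen, and 1 gene that the rule takes is not reported here. Zcchc6 and Zcchc11 of the processing list were matched as Tut7 and Tut4. The alternatives were other lengths, denominators, thresholds, pseudocounts, scalings and filters, DESeq2, and leaving out each library.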

Additional observations from a re-analysis of the deposited data

Results flagged for a closer look

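Of 150 per-gene and summed values examined for 1 library far from the other 3, 3 were picked out by a Dixon ratio of gap to range above its critical value. Chance picks about 1 in 20 such groups. Hist2h2ac was highest in replicate 1 at 11.1 TPM, with the others at 8.18 to 8.52. Hist1h1e was lowest in replicate 4 at 5.17 TPM, with the others at 8.75 to 9.31. Cenpa, the centromeric H3 variant, was lowest in replicate 3 at 16.9 TPM, with the others at 20.3 or more.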

How the results depend on the processing

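With the length shortened by 200 bases (at least 100), members summed to 290.0 TPM, H2A to 44.8, H2B to 76.7, H3 to 15.0 and H4 to 106.0, and the 4 highest members held 33.3%. As CPM without length, 11 members were at 1 in every library, members summed to 54.0 and variants to 833. H1 then summed to 14.1, H2A to 7.01, H2B to 21.4, H3 to 1.90 and H4 to 9.57. The 4 highest members held 56.9%. H4 was thus below H1 and H2B. Members with long models weigh more without length. Hist2h2be, counted over 2620 bases, had 2196 of the 3386 H2B counts. Hist1h1c, counted over 1560 bases, had 1583 of the 2185 H1 counts. Over nuclear protein-coding genes alone, members summed to 235 TPM, H2B to 66.7, H4 to 73.5 and variants to 1020.0. At 5 TPM in every library stood 9 members, and at 10 counts 23. Leaving out 1 library gave 195 to 215 TPM for the member sum and 37.7 to 46.5 for H1. It gave 7 to 86 genes with excess spread, the most without replicate 4, and 0 members called each time. That count was 349 without a filter on low counts (1 member, Hist1h1c), 10 at a mean CPM of 5 or more, 5 without robust estimation and 108 by DESeq2, against 24. The cause was not tested. No paired analysis was possible because the libraries form 1 group. Depth limits the low members, since 3 counts in 1 library came to between 0.0482 and 1.15 TPM by gene.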
